A study of Mus musculus with 8 samples.

Results

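Meltf, Dusp26, Cd69, Capn8 and Fam78a are 5 genes that encode no chemoreceptor and whose mRNAs were more abundant in olfactory mucosa of Lhx2 conditional knockout mice than in that of littermate controls. They were chosen by that very difference, from a list of 19928 genes, so their cKO minus control values are given as a description and carry no test. Each is represented here by the only transcript cluster annotated to its symbol alone, which combines the probe signals over all exons of a gene. The arrays came from 4 123Cre:Lhx2fl/fl mice (cKO) and 4 controls, of which 2 were 123Cre:Lhx2fl/+ (controls 3 and 4) and 2 were Lhx2fl/+ (controls 1 and 2), all at postnatal day 3 and on a mixed 129 x C57BL/6J background, with 1 array per mouse. Every mouse, controls included, carried at least 1 floxed Lhx2 allele.

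Lhx2 is a LIM-homeodomain transcription factor of olfactory sensory neurons (OSNs) and their progenitors, known for its role in odorant receptor expression. The 123Cre transgene acts once OSNs have become immature neurons, and recombination is incomplete, so that many OSNs of the mutants still make Lhx2 mRNA. The mucosa also holds basal, sustentacular, microvillous, glandular, glial, immune and stromal cells. The sample titles begin with a letter of unstated meaning: A for mutants 1, 3 and 4 and controls 3 and 4, and B for mutant 2 and controls 1 and 2. Array medians lay between 8.82 and 8.89 on the log2 scale. By sex-linked mRNAs, mutant 2 and controls 1 and 4 were female. Lhx2 read 13.03, 12.55, 13.01 and 13.02 in mutants 1 to 4, against 13.14, 13.09, 13.20 and 13.13 in controls 1 to 4, a log2 difference of -0.24 (SE 0.11, adjusted p = 0.337 by limma). Its cluster also covers exons that are not deleted, so this value is a weak check of the genotypes. Omp, the defining mRNA of mature OSNs, and Cyp2g1, a cytochrome P450 gene of sustentacular cells and Bowman's glands, averaged 12.47 and 14.30 in mutants and 13.44 and 14.31 in controls, so the defining mRNAs of neurons and of supporting cells were both present.

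The 5 genes encode proteins of unlike kinds. Meltf encodes melanotransferrin, an iron-binding relative of serum transferrin that is held at the cell surface by a lipid anchor. Dusp26 encodes an atypical dual-specificity phosphatase, an enzyme that takes phosphate off tyrosine as well as serine and threonine, and is known from neural tissue. Cd69 encodes a C-type lectin that appears early on activated lymphocytes and pulls the egress receptor S1pr1 off the cell surface, so that the cells stay in the tissue. Capn8 encodes a calcium-dependent cysteine protease of the calpain family, known from mucous cells of the stomach, where it works together with Capn9. Fam78a is named after its sequence family, and no role is given for it here.

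A promoter window, from 250 bases before to 50 bases after an annotated start, was found in RefSeq (GRCm38.p6) for 3 of the 5 genes, namely Meltf, Capn8 and Fam78a. The windows are shown because Lhx2 is a DNA-binding protein. The genes share a rise because they were chosen for it, and whether Lhx2 acts on these windows was not tested. They were searched on both strands for TAATTA, a core of LIM-homeodomain sites, and for CCCNNGGG, a core of the Olf/Ebf sites known from OSN genes. Capitals mark a match to the second motif. Lines follow for Meltf at chr16:31878560-31878859 (plus strand), Capn8 at chr1:182564757-182565056 (plus strand) and the first of the 4 annotated Fam78a windows at chr2:32084620-32084919 (minus strand).
Meltf: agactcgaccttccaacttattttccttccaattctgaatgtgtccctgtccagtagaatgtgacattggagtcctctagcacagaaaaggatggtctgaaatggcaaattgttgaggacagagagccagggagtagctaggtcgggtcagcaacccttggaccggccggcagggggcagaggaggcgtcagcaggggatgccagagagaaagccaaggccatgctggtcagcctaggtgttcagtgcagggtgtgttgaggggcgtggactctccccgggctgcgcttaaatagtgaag
Capn8: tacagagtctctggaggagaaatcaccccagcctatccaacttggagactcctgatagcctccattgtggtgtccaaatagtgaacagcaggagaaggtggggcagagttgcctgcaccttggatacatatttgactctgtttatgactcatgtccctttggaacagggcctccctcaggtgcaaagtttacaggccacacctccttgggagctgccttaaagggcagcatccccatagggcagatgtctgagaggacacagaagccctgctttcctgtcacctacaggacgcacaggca
Fam78a: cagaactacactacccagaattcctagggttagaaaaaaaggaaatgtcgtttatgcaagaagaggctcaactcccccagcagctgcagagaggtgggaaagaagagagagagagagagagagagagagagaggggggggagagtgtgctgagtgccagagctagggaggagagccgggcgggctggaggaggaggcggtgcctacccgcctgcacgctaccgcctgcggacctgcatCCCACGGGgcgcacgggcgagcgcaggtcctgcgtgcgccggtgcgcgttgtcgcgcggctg

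TAATTA stood in 0 of the 6 windows of these 3 genes, and in 5.29% of all 32851 windows of the table. CCCNNGGG stood in 1 of the 6, the Fam78a window above, where it begins 12 bases before the start, and in 13.7% of all windows. The windows differed in base composition. Capn8 had 1 CG dinucleotide and 52.7% G+C, Meltf had 8 and 55.0%, and the Fam78a window had 21 and 62.7%, while the other 3 Fam78a windows had 10, 7 and 35 CG dinucleotides. Over all windows the median number of CG dinucleotides was 7, with quartiles of 3 and 20, so the Capn8 window lay below the lower quartile and that of Fam78a above the upper one.

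Meltf had the largest difference of the 5. Its mRNA abundance was 8.40, 8.30, 8.57 and 8.31 on the log2 scale in mutants 1 to 4, against 7.49, 7.49, 7.63 and 7.80 in controls 1 to 4. The groups did not overlap, and 0.50 lay between the lowest mutant and the highest control, the widest such gap among the 5 genes. Means were 8.39 ± 0.12 in mutants and 7.60 ± 0.15 in controls (SD, n = 4 each). The log2 difference of 0.79 (SE 0.09) amounts to 73.2% more mRNA by this scale. Among all genes tested Meltf stood at rank 7 by the size of the fitted difference in that direction. Dusp26 stood at rank 12, Cd69 at 39, Capn8 at 68 and Fam78a at 106.

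Dusp26 was the most variable of the 5 within the groups. It read 9.70, 9.88, 9.66 and 9.46 in mutants 1 to 4, against 8.82, 8.86, 9.21 and 8.90 in controls 1 to 4. Control 3 stood above the other controls, and mutant 4 was the lowest mutant, which left a gap of 0.24 between the groups. The difference of 0.73 (SE 0.11), or 65.5% more mRNA, was therefore larger than the spread within either group, which covered 0.42 in mutants and 0.40 in controls. Dusp26 averaged 9.67 ± 0.17 in mutants and 8.95 ± 0.18 in controls (SD, n = 4 each).

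Cd69 was the dimmest of these clusters. Its values were 6.77, 6.67, 6.82 and 6.64 in mutants 1 to 4, against 6.32, 6.16, 6.25 and 6.15 in controls 1 to 4. Mutants averaged 6.73 ± 0.08 and controls 6.22 ± 0.08 (SD, n = 4 each), without overlap, a log2 difference of 0.51 (SE 0.06). Only 11.5% of genes had a lower mean over the 8 arrays. By this scale Cd69 was 42.0% higher in mutants, a size that is less certain for a dim cluster, whose value holds a larger share of background signal.

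Capn8, likewise a dim cluster, read 7.78, 7.65, 7.66 and 7.73 in mutants 1 to 4, against 7.36, 7.21, 7.28 and 7.30 in controls 1 to 4. The lowest mutant lay 0.28 above the highest control. Means of 7.70 ± 0.06 in mutants and 7.29 ± 0.06 in controls (SD, n = 4 each) gave a log2 difference of 0.42 (SE 0.05), or 33.3% more mRNA. Capn8 and Cd69 both had a mean under 7.52, the lower quartile of all genes, and would be lost to a filter set there.

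Fam78a had the smallest difference and the tightest groups. It read 8.52, 8.43, 8.40 and 8.40 in mutants 1 to 4, against 8.10, 8.08, 8.05 and 8.12 in controls 1 to 4. The controls spanned 0.07 and the mutants 0.12, and a gap of 0.29 separated them. With means of 8.44 ± 0.06 in mutants and 8.09 ± 0.03 in controls (SD, n = 4 each), the log2 difference was 0.35 (SE 0.04), or 27.8% more mRNA. In bulk mucosa a higher value can stand for more cells of a type or for more RNA per cell, and these cannot be told apart.

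**Figure D1:**
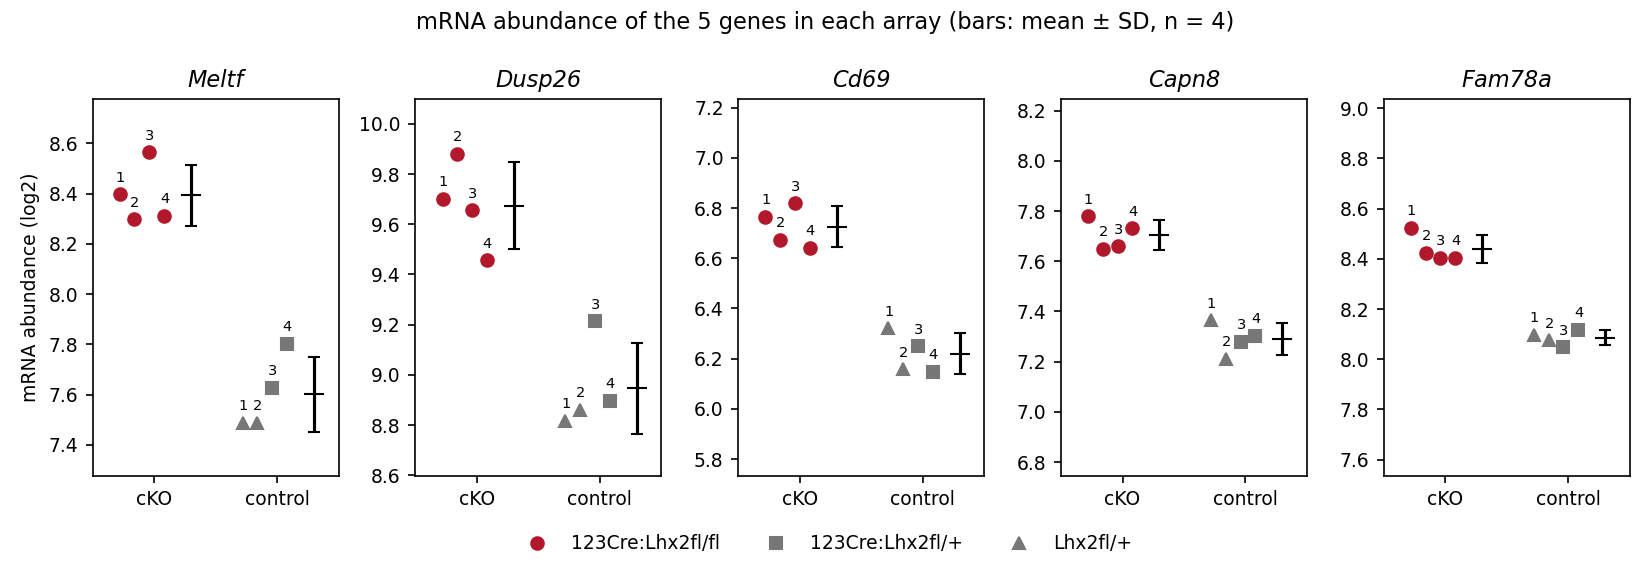
mRNA abundance (log2) of Meltf, Dusp26, Cd69, Capn8 and Fam78a in each array, with mutants left and controls right in every panel, mouse numbers beside the points, and the mean ± SD of 4 arrays at the right of each group. In every panel the 4 mutants lie above the 4 controls, by 0.50 for Meltf and by 0.24 for Dusp26, and all panels span the same range of log2 units.

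All 5 genes were among the 12 that passed an adjusted p under 0.01 by limma in the upward direction, which is 0.0602% of all genes tested, against 412 genes, or 2.07%, in the downward direction. Since this contrast chose them, nothing follows from that count. The count of 12 changed when 1 array was left out, which also made a group smaller. It was 0 without control 1 or control 2, 1 without mutant 3 or control 3, and 2 without control 4. Leaving out mutant 4, 1 or 2 gave 4, 6 and 19. In those fits the log2 differences were 0.74 to 0.86 for Meltf, 0.66 to 0.82 for Dusp26 and 0.47 to 0.54 for Cd69. Capn8 gave 0.39 to 0.44 and Fam78a 0.33 to 0.37. By size of difference the 5 genes ranked 1, 2, 6, 8 and 11 among the 12. The arrangement with all mutants above all controls was found in 634 genes, or 3.18% of those tested. No single mouse was highest in all 5. Mutant 1 was the highest mutant in Capn8 and Fam78a, mutant 2 in Dusp26 and mutant 3 in Meltf and Cd69. Mutant 2, the lowest in Lhx2 and in Omp (12.00, against 12.59 to 12.68 in the other mutants), was the lowest mutant in Meltf and Capn8. Averaged over the 5 genes as the distance from the control mean, mutants 1 to 4 stood at 0.61, 0.56, 0.59 and 0.48, whereas controls 1 to 4 stood at -0.01, -0.07, 0.05 and 0.03. Without mutant 2 the differences were 0.82 for Meltf, 0.66 for Dusp26, 0.52 for Cd69, 0.43 for Capn8 and 0.36 for Fam78a, so none of them rested on that mouse.

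The choice of the 5 genes did not directly use the comparison between the control genotypes. Yet a small spread among the controls favours a clear rise, so small differences between them may be partly selected. The comparison asks whether the Cre transgene, with 1 recombinable Lhx2 allele, goes along with a change of its own. Among the controls this genotype and the title letter cannot be told apart, and there are 2 mice on each side. Meltf averaged 7.71 in 123Cre:Lhx2fl/+ and 7.49 in Lhx2fl/+ controls, a difference of 0.23 (SE 0.10, adjusted p = 0.649 by limma over all genes). Dusp26 averaged 9.06 in 123Cre:Lhx2fl/+ and 8.84 in Lhx2fl/+ controls, a difference of 0.22 (SE 0.14, adjusted p = 0.727 by limma). In both genes the 2 Cre controls lay above the 2 without Cre, and the same separation, in either direction, was found in 37.7% of all genes. Cd69 differed by -0.04 (SE 0.09), Capn8 by 0.003 (SE 0.08) and Fam78a by -0.004 (SE 0.07), with adjusted p-values by limma of 0.934, 0.997 and 0.993. In this comparison limma called 0 genes (0%) at an adjusted p under 0.01, and 1551 genes had an unadjusted p under 0.05. With 2 mice on each side, a p that misses the threshold does not show that the control genotypes were alike.

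Set against each control genotype alone, the mutants were higher in all 5 genes, as must follow where every mutant lies above every control. Against 123Cre:Lhx2fl/+ controls the log2 differences were 0.68 for Meltf, 0.62 for Dusp26, 0.53 for Cd69, 0.41 for Capn8 and 0.36 for Fam78a. Against Lhx2fl/+ controls they were 0.91, 0.84, 0.49, 0.42 and 0.35 in the same order. The choice of control thus moved Meltf and Dusp26 by over 0.2 and the other 3 genes by less than 0.05. Within letter A, with 3 mutants and 2 controls, the differences were 0.71 for Meltf, 0.55 for Dusp26, 0.54 for Cd69, 0.43 for Capn8 and 0.36 for Fam78a. Within letter B, with 1 mutant and 2 controls, they were 0.81, 1.04, 0.43, 0.36 and 0.34. Dusp26 was the gene that varied most with the letter, and with the letter as a fixed term in the fit it was no longer called, at a difference of 0.73 (SE 0.12), while the other 4 were. Each of the 5 was higher in mutants within both letters, a sign that the lack of overlap fixed in advance.

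**Figure D2:**
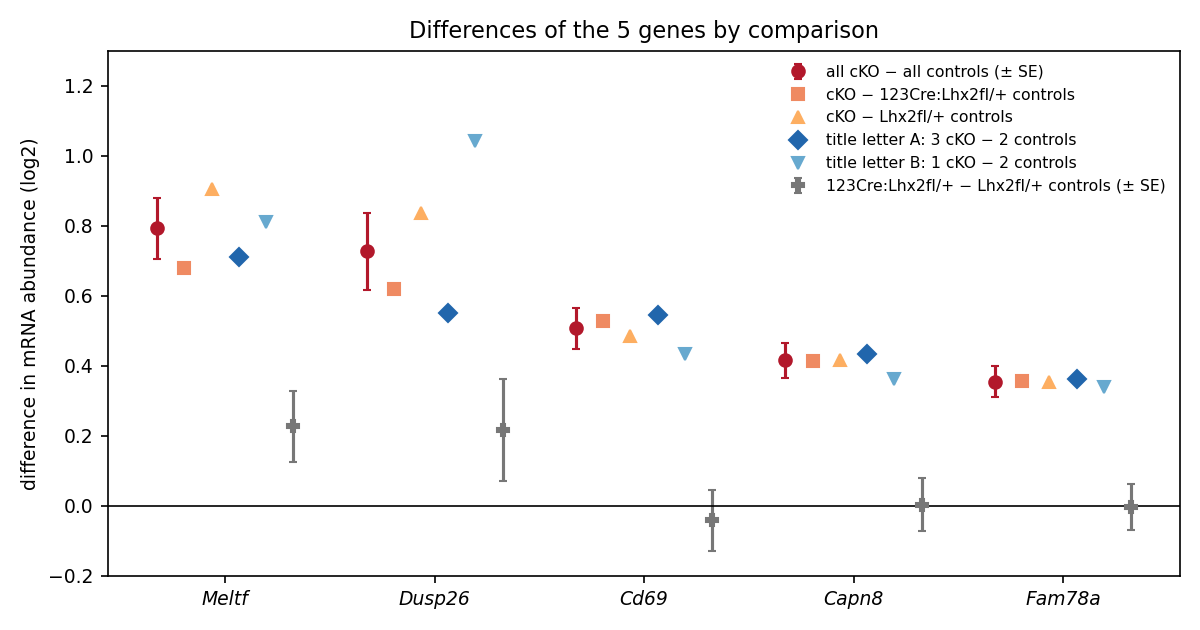
Log2 differences of the 5 genes for all mutants against all controls, against each control genotype, within each title letter, and between the control genotypes (123Cre:Lhx2fl/+ minus Lhx2fl/+), with bars of 1 SE for the first and last. Every mutant minus control point lies above 0, from 0.34 to 1.04, a sign fixed by the lack of overlap between the groups. The control genotypes differ by 0.23 in Meltf, 0.22 in Dusp26 and between -0.04 and 0.003 in the other 3.

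Likeness was measured as the mean absolute distance over the 8 arrays, after each gene's own mean was subtracted. Capn8 and Fam78a were 0.041 apart, and Cd69 was 0.062 from Capn8 and 0.080 from Fam78a. Dusp26 was nearer to Cd69 (0.148) than to Meltf (0.155), and the other distances of Meltf and Dusp26 to members ran from 0.175 to 0.219. Capn8 and Fam78a were the nearest of all eligible genes to each other. Beside other members of the 5, the nearest genes were Slc17a9 for Cd69 (0.074), Tlcd3b for Capn8 (0.061), and Ccl20 (0.043) and Olfm4 (0.050) for Fam78a. Pde1b, a calcium- and calmodulin-dependent phosphodiesterase gene, was the nearest to both Dusp26 (0.103) and Meltf (0.137). These distances are set largely by the size of the group difference, for which the genes were selected, and describe no more than that.

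The genes lie on 5 chromosomes (Meltf on 16, Dusp26 on 8, Cd69 on 6, Capn8 on 1 and Fam78a on 2). Their nearest tested neighbours in the RefSeq gene table did not pass the test, which 0.0602% of all genes passed upward and 2.07% downward. Beside Meltf, Pigz, which encodes a mannosyltransferase of lipid anchor synthesis, differed by 0.22 (SE 0.06, adjusted p = 0.097 by limma), with all mutants above all controls, and Dlg1 on the other side by -0.05. The neighbours of Dusp26 differed by 0.23 (Unc5d) and 0.17 (Rnf122), those of Cd69 by 0.02 (Clec2d) and 0.14 (Clec2m), those of Capn8 by 0.08 (Capn2) and 0.07 (Ccdc185), and those of Fam78a by -0.04 (Nup214) and 0.11 (Plpp7). Each value was smaller than that of the member it borders, as would hold for nearly any gene set beside one chosen for its rise.

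Relatives of the 5 genes were then examined in family and process lists, with the members left out, beside a median log2 difference of 0.03 over all genes. The test was passed upward by 0.0602% of all genes and downward by 2.07%, so a count of 0 or 1 in lists this short says little. In 30 genes of iron handling, 0 passed the test upward and 1 downward, and the median was 0.06. That gene was Hfe, whose product binds the transferrin receptor and takes part in sensing iron. Hfe read 8.78 in mutants and 9.41 in controls (difference -0.64, SE 0.08, adjusted p = 0.0045 by limma), opposite to Meltf. The adjusted p of Hfe by limma was above 0.01 in 6 of the 8 fits that left out 1 array. Those were the fits without mutant 3 (0.0158), mutant 4 (0.0137) or control 1, 2, 3 or 4 (0.0203, 0.0168, 0.0157 and 0.0172). Over the 8 fits the difference itself ran from -0.68 (without mutant 1) to -0.55 (without mutant 2). Hamp, the gene of the iron hormone hepcidin, differed by 0.15 (adjusted p = 0.302) and Steap2, a metalloreductase gene, by 0.15 (adjusted p = 0.391). Hamp was very dim, at 4.90 in mutants and 4.75 in controls, where the lower quartile of all genes was 7.52.

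Of 29 other dual-specificity phosphatases and relatives, 0 passed in either direction (over all genes 0.0602% upward and 2.07% downward). Their median was 0.03. Dusp15 came nearest to Dusp26 in size, with 8.09 in mutants and 7.66 in controls (difference 0.42, SE 0.11, adjusted p = 0.0756 by limma), but its groups overlapped. Dusp14 differed by -0.28 (SE 0.07, adjusted p = 0.0456) and Dusp8, which acts on MAP kinases, by -0.20 (adjusted p = 0.0596). Both had all mutants below all controls. Dusp21, a dim gene at 6.27 in mutants and 6.09 in controls, differed by 0.17 (adjusted p = 0.184), with all mutants above all controls. Among 14 measured calpain genes, calpastatin included, 0 passed in either direction, with a median of 0.01. Capn9, the partner of Capn8 in the stomach, read 6.94 in mutants and 6.77 in controls, a difference of 0.17 (SE 0.07, adjusted p = 0.335 by limma). Capns2, a small regulatory subunit gene with the smallest p of the list, differed by -0.25 (SE 0.10, adjusted p = 0.287), Capn11 by -0.31 (SE 0.16, adjusted p = 0.429) and Capn6 by 0.15 (adjusted p = 0.448). Fam78b, the other gene of its family, differed by -0.08 (SE 0.06, adjusted p = 0.604), against 0.35 for Fam78a.

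The relatives of Cd69 were taken from the natural killer gene complex, where 33 of 39 listed C-type lectins were measured. The share passing over all genes was 0.0602% upward and 2.07% downward. Among these lectins 0 passed in either direction (median 0.06). Most of them were dim, with means below 7.52, the lower quartile of all genes, so the lack of calls says little. Klri1, a killer cell receptor gene, had the smallest p of these, with a difference of 0.15 (adjusted p = 0.256 by limma). It read 5.62 in mutants and 5.46 in controls. Of 15 measured genes of lymphocyte activation other than Cd69, 0 passed in either direction (median 0.05). Several of these genes also had means below that quartile. Tnfrsf9, a costimulatory receptor gene induced on activated T cells, came nearest with 0.18 (adjusted p = 0.057), while Nfatc1 and Nr4a1, induced in lymphocytes through the antigen receptor, differed by -0.23 each (adjusted p = 0.0891 and 0.435). S1pr1, whose protein Cd69 binds, differed by 0.24 (SE 0.13, adjusted p = 0.45), with overlapping groups. It was named for that role and not by its p. At an unadjusted p under 0.05 by limma, 1 gene was higher and 1 lower in the iron list, 4 and 2 among the phosphatases, 1 and 0 among the lectins, 0 and 1 among the calpains, and 1 and 1 in the activation list, where over all genes 5.13% were higher and 9.87% lower at that threshold. The methods' t-test, run without the study's scaling to mature OSN mRNAs, called 0 of the family genes lower after adjustment.

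**Figure D3:**
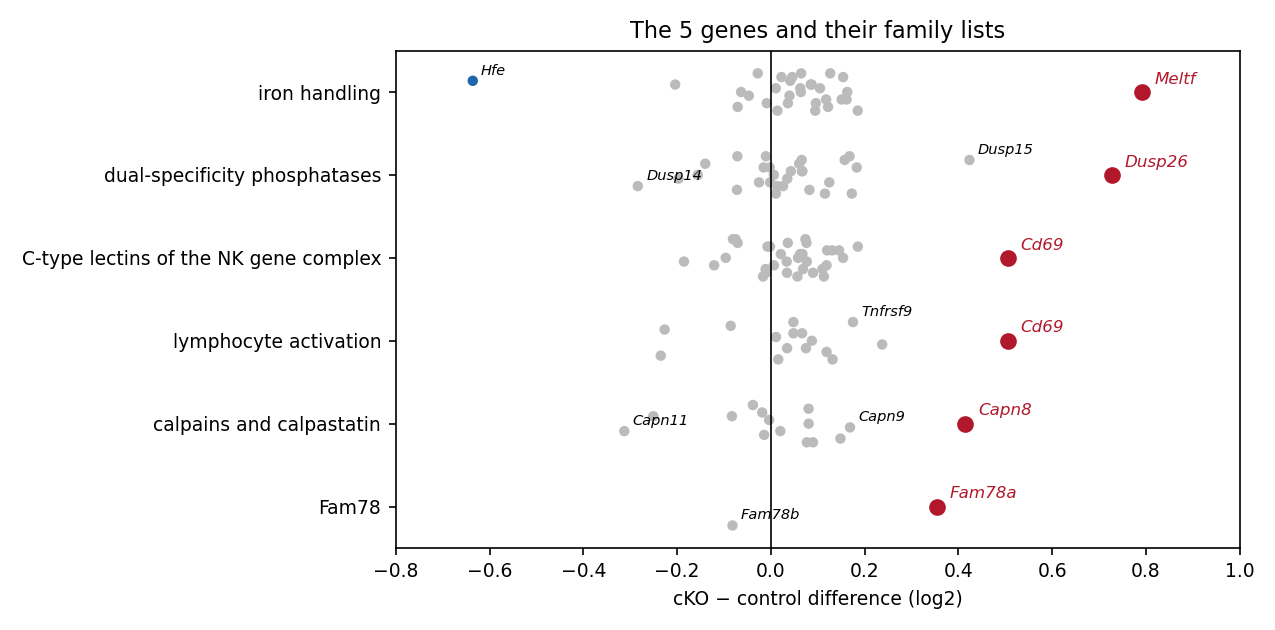
Log2 differences, cKO minus control, of each of the 5 genes (red) and of the other measured genes in its family or process list (grey, and blue where adjusted p was under 0.01), with list names at the left and Cd69 in 2 lists. Hfe at -0.64 is the blue point, and the 5 genes, which were chosen for their differences, lie at 0.35 to 0.79.

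Marker genes of the cell types in the mucosa were read beside these differences. For scale, 0.0602% of all genes passed the test upward and 2.07% downward. The mean over 20 mature OSN markers was 10.80 to 11.47 in mutants and 11.94 to 12.03 in controls, with the lowest value in mutant 2, and 6 of the 20 passed the test downward. For 20 immature OSN markers, a list that includes Lhx2 itself, the means were 11.59 to 11.74 in mutants and 11.75 to 11.84 in controls. The groups were barely apart, with the highest mutant at 11.742 and the lowest control at 11.747. The median difference of that list was -0.03, and 6 of its 20 genes had a fitted difference above 0. Of the 20, 1 passed the test, downward. It was Stmn4, a neuronal stathmin gene (difference -0.30, SE 0.04, adjusted p = 0.0045 by limma), while Gap43, a growth cone protein gene, differed by -0.29 (adjusted p = 0.268). Means of 11 progenitor markers were 11.49 to 11.57 in mutants and 11.40 to 11.48 in controls, and 0 of these genes passed. Like the 5 genes, the means of progenitor and of microvillous cell markers had all 4 mutants above all 4 controls. The microvillous mean was 8.97 to 9.16 in mutants and 8.82 to 8.94 in controls. All 11 microvillous markers had a fitted difference above 0, as had 62.3% of all genes, 10 of 11 progenitor and 11 of 12 granulocyte or mast cell markers. Of the microvillous markers, 0 passed the test. Among them Ascl3, a defining factor of one kind of microvillous cell, differed by 0.20 (SE 0.08, adjusted p = 0.26 by limma) and Trpm5, the channel of another, by 0.06 (adjusted p = 0.671). The part of these cell types in the differences of the 5 genes was not tested.

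For Cd69 the lymphocyte list bears most directly. Over 19 of 23 listed genes its mean was 7.07 to 7.17 in mutants and 6.96 to 7.15 in controls, with 0 genes called and 14 below the lower quartile of all genes. Cd3e, a subunit of the T cell receptor complex, averaged 7.88 in mutants and 7.82 in controls, and Ptprc, the pan-leukocyte phosphatase gene, 8.30 in mutants and 8.24 in controls. Over the 19 genes the log2 differences ran from -0.07 (Nkg7, of cytotoxic cells) to 0.20 (Thy1, also made by neurons and stromal cells), with Cd2 and Il7r at 0.16 each, a median of 0.04 and 13 genes above 0. The part of lymphocytes in the difference of Cd69 (0.51) was not tested. Macrophage markers averaged 9.02 in mutants and 8.96 in controls, granulocyte or mast cell markers lay at 7.01 to 7.16 in mutants and 6.83 to 7.15 in controls, and both lists overlapped between the groups. Markers of sustentacular cells (12.62 to 12.74 in mutants, 12.59 to 12.67 in controls) overlapped as well.

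**Figure D4:**
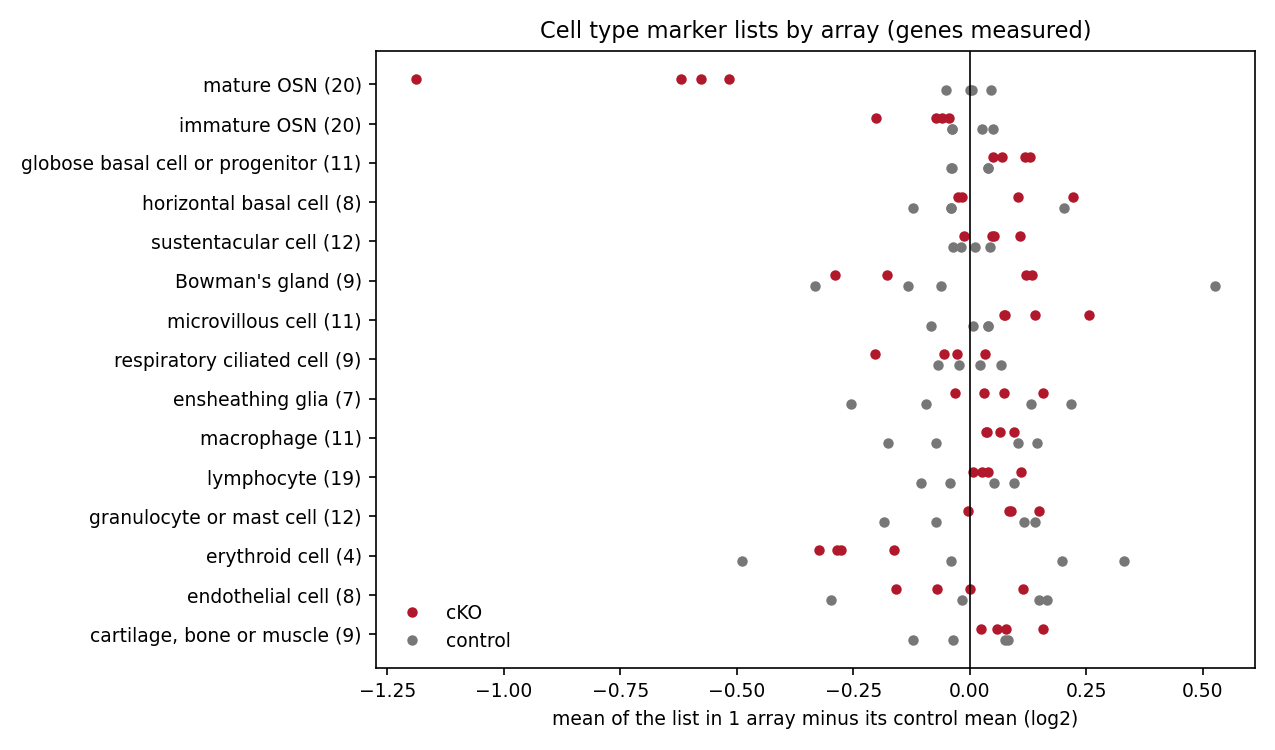
Mean log2 level of each cell type marker list in each array, minus the control mean of that list, for mutants (red) and controls (grey), with the number of genes measured beside each list name. The means of mature OSN markers and, barely, of immature OSN markers, a list that includes Lhx2, are lower in all 4 mutants than in all controls. Progenitor and microvillous cell markers are slightly higher in all 4 mutants than in all controls, and the lymphocyte, macrophage and granulocyte lists overlap.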

How the data were processed

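mRNA abundance was measured with Affymetrix GeneChip Mouse Gene ST arrays on RNA from dissected olfactory mucosa. The authors deposited 1 log2 value per array and transcript cluster, made with Affymetrix Expression Console per the submitters' processing notes. The background correction, the normalization between arrays and the version were not given in the sources used here. Background signal left under a log2 value makes the change of a dim gene look smaller. Of 28312 clusters, 21759 had 1 gene symbol in the platform annotation, 1605 had several and 4948 none. Clusters with 1 symbol were used, and for the 994 genes with several clusters the one with the highest mean over the 8 arrays stood for the gene, leaving 19928 genes. Precision is limited by the number of arrays, and the median SE of a group difference was 0.07. Fits used lmFit and eBayes of limma 3.58.1 under R 4.3.3, with two-sided tests, Benjamini-Hochberg adjustment over all genes and a threshold of 0.01. All adjusted p-values are from limma. The code was checked on simulated data.

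The members and all gene lists were chosen with earlier results of these data known. Named genes were the 5 members, Lhx2, Omp, Gap43, up to 4 genes with the smallest p in each family list, the nearest tested neighbours, the 3 nearest profiles per member, and sex-linked genes. Cell type markers, S1pr1, Capn9 and Fam78b are named for their roles. Stmn4, Nkg7, Thy1, Cd2 and Il7r were named after their values were seen. Groups came from the labels. Mice given separate labels were taken as separate animals. Promoter windows came from RefSeq (GRCm38.p6), which was otherwise used only for names and neighbours. Alternatives were other normalizations, thresholds, filters and eBayes settings, title letter or sex in the fit, array weights, the methods' t-test, 1 control genotype at a time, and each array left out.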

Additional observations from a re-analysis of the deposited data

Results flagged for a closer look

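Lhx2 in the 4 mutants was examined further because mutant 2 lay far from the others. It read 12.55 in mutant 2 and 13.01 to 13.03 in the other mutants, so that the gap took up 0.971 of the range of the group, above Dixon's limit for 4 arrays. Of 12 groups of values examined in this way it was the only 1 past the limit, and chance puts about 5% of such groups past it. Among the 5 genes, the highest ratios were those of Fam78a in mutants (0.824) and Dusp26 in controls (0.799), where mutant 1 and control 3 stood above the rest.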

How the results depend on the processing

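The log2 differences of the 5 genes stayed above 0 in every alternative run. For fits on part of the arrays that sign was fixed in advance, because every mutant lay above every control. Leaving out 1 array gave 0.74 to 0.86 for Meltf, 0.66 to 0.82 for Dusp26, 0.47 to 0.54 for Cd69, 0.39 to 0.44 for Capn8 and 0.33 to 0.37 for Fam78a, and the other alternatives gave 0.68 to 0.91, 0.62 to 0.84, 0.49 to 0.53, 0.40 to 0.44 and 0.34 to 0.40. Quantile normalization moved Fam78a to 0.40. Calls were less stable. The number of genes higher in mutants was 6, 19, 1 and 4 without mutants 1 to 4 and 0, 0, 1 and 2 without controls 1 to 4, and of the 5 genes 4, 5, 1, 2, 0, 0, 1 and 1 were called in these fits. Genes lower in mutants numbered 30 to 657, and those of the family lists 0 to 1. With either control genotype alone, 0 genes were higher, 0 lower, 0 of the 5 genes called and 0 family genes lower. An adjusted p under 0.05 gave 73 higher, 1031 lower and 2 family genes lower. The methods' t-test was run on the deposited values with equal variances, without the study's scaling to mature OSN mRNAs. After Benjamini-Hochberg adjustment it gave 1 gene higher (4930445K14Rik, named because it was the single call), 0 lower, 0 of the 5 genes and 0 family genes. Before that adjustment it gave 236 higher and 1123 lower at p under 0.01. With genes below the lower quartile left out, 3 of the 5 genes were called, because Cd69 and Capn8 were not tested. With the title letter as a fixed term 4 of the 5 genes were called, not Dusp26, beside 14 genes higher and 603 lower. The control genotype differences passed in no alternative. No paired analysis was possible because the replicate numbers were given in accession order and pair nothing. The cause of these shifts was not tested, apart from the smaller groups of those fits. For Cd69 and Capn8, signal near the lower end of the array limits the size of the differences.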
